A study of Homo sapiens with 4 samples.

Results

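The 8 genes described here are C1orf106, now named INAVA (innate immunity activator), the cytohesins CYTH1, CYTH2 and CYTH3, the small GTPases ARF6 and ARF1, and the FERM-domain scaffolds FRMD4A and FRMD4B. They were chosen by symbol, and all 8 are listed among the 13165 genes of the deposited table. RNA was sequenced from TPC1 cells, an established human papillary thyroid cancer line, that carried an empty vector (TPC1-Vector) or a vector expressing C1orf106 (TPC1-INAVA, labelled TPC1-C1orf106). Both groups received a vector and were selected as stable lines with puromycin at 0.5 μg/mL, and each group had 2 libraries. The values are FPKM, fragment counts scaled to transcript length and to sequencing depth, and the authors deposited 1 value per gene and group. The libraries of a group had therefore been combined, so no SD, interval or test could be computed from these values, and the number of reads behind them is unknown. The study infected cells with retrovirus and selected them as stable lines, so the groups are 2 separately selected cell populations, and whatever distinguishes those populations cannot be told apart from the presence of the INAVA cDNA.

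INAVA is a cytoplasmic protein encoded at a risk locus for Crohn's disease. It binds cytohesins, which are guanine nucleotide exchange factors that load ARF GTPases with GTP, and it has been described in signalling downstream of innate immune receptors and in the upkeep of epithelial cell junctions. ARF6 acts at the plasma membrane and on recycling endosomes, where it directs membrane traffic, actin remodelling and the internalization of adhesion proteins. ARF1 acts mainly at the Golgi and is also a substrate of cytohesins. FRMD4A and FRMD4B are scaffolds that bring cytohesins together with the polarity protein PARD3 at epithelial junctions. These functions are exerted by proteins and by the GTP state of the ARFs, neither of which is measured by RNA sequencing.

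The gene whose cDNA was introduced was the one of the 8 that differed by more than 1.5-fold between the groups. INAVA (chromosome 1, forward strand, 200891499 to 200915736, hg38) had 7.96 FPKM with the empty vector. With the INAVA vector it had 123 FPKM, which is 15.4 times as much. After addition of 0.5 to each FPKM value, a step that shrinks the ratios of weakly expressed genes, its log2 fold change was 3.86. TPC1-Vector cells thus already contained INAVA RNA, at a level above that of 44.2% of the listed genes, and in TPC1-INAVA it was above 95.3% of them. Among the 12305 genes whose 2 group values averaged 0.5 FPKM or more, its change ranked 6 in size in either direction. Of the 7 other members, which include FRMD4B with a mean under 0.5 FPKM, 0 reached 1.5-fold on this scale. Among the 12305 genes, 3.7% did so, 2.24% being higher and 1.45% lower in TPC1-INAVA, and 0.853% reached 2-fold in either direction. At a share this low, 0 among 7 genes does not set the partners apart from other genes.

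**Figure D1:**
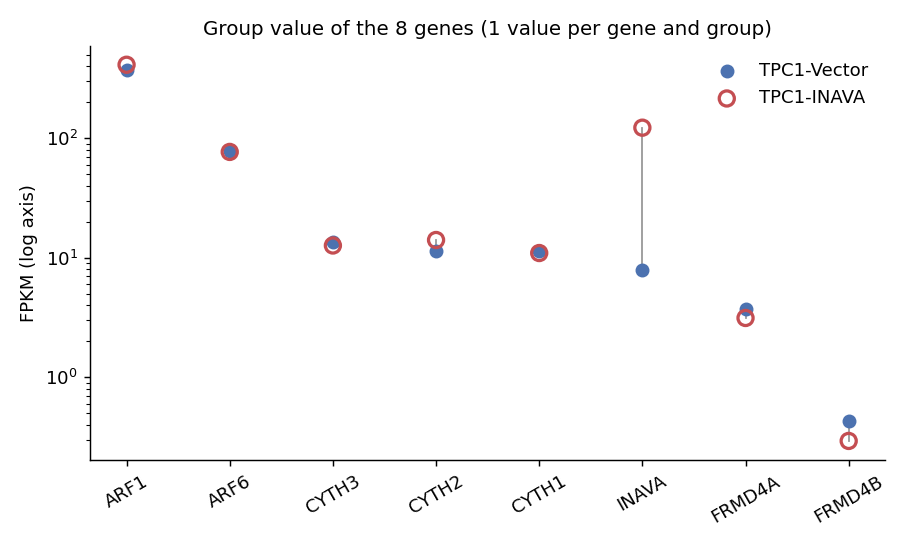
FPKM of the 8 genes on a log axis, with the filled circle for TPC1-Vector, the open circle for TPC1-INAVA and a line joining the 2 group values of a gene, without error bars because there is 1 value per group. INAVA moved from 7.96 to 123 FPKM, past the 3 cytohesins and ARF6, and the circles of ARF6 (77.9 and 76.8 FPKM) lie on top of each other.

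The deposited value covers the whole INAVA gene and does not separate the endogenous transcripts from the introduced cDNA. In GENCODE release 29 the gene has 7 transcripts, among which INAVA-201 (10 exons, 4298 nt) and INAVA-202 (2197 nt) carry complete reading frames of 1989 and 1734 nt. The last 1734 nt of the longer frame are identical to the whole of the shorter frame, so INAVA-201 adds 255 nt at its 5′ end. The first 90 bases of both frames are given here because they show where each frame starts, with the start codon in capitals. Those of INAVA-201 fall in the 255 nt found only in the longer frame, whereas those of INAVA-202 are part of both frames. That of INAVA-201 lies in exon 1 (chromosome 1, 200891541 to 200891630, GRCh38), and that of INAVA-202 begins in exon 2 and ends in exon 3 (200898401 to 200899507, an intron included).
INAVA-201: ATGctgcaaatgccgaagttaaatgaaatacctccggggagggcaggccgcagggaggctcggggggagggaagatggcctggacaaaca
INAVA-202: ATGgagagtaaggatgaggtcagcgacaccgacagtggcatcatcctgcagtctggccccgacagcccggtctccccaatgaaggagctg

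Which frame the construct held, and how much untranslated sequence, is not given in the sources used here beyond its description as full-length. The coding sequence makes up 46.3% of the INAVA-201 transcript. An FPKM value is divided by the length of the annotated transcript, so the level printed for TPC1-INAVA is not scaled to the length of the transcript made from the vector.

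The change of INAVA was not shared by the genes around it. Of 14 listed genes within 1 Mb, 13 averaged 0.5 FPKM or more. With the INAVA vector 5 of them were higher and 8 lower, and their median log2 fold change was -0.035. The nearest listed genes on either side were CAMSAP2, which encodes a protein that binds microtubule minus ends, at 15.2 and 17.7 FPKM, and the kinesin KIF21B, at 1.001 and 0.929 FPKM. PHLDA3, a p53 target that restrains AKT and lies 549 kb away, was the 1 neighbour past 1.5-fold, at 28.9 and 44.9 FPKM in TPC1-Vector and TPC1-INAVA (log2 fold change 0.63). No listed gene overlapped INAVA.

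**Figure D2:**
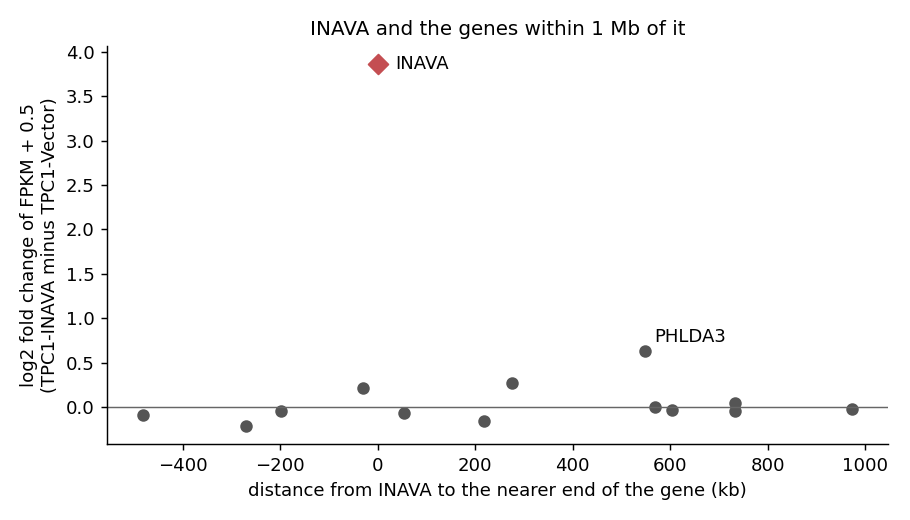
Log2 fold change (TPC1-INAVA minus TPC1-Vector) of INAVA, the diamond, and of the 13 genes within 1 Mb that averaged 0.5 FPKM or more, against the distance in kb from INAVA to the nearer end of each gene. INAVA stands at 3.86, PHLDA3 at 0.63 and the other neighbours between -0.22 and 0.27.

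Genes that were higher in TPC1-INAVA were ranked by their log2 fold change over the 2 group values, among genes with at least 1 FPKM in the higher group, and the first 3 were RNVU1-4, RNVU1-20 and SLPI. RNVU1-4 and RNVU1-20, variant U1 small nuclear RNA genes, are listed at 0 in TPC1-Vector, and at 114 and 55.4 FPKM in TPC1-INAVA, so no fold change is given for them. The variant U1 genes resemble each other closely, so how reads were divided among them is uncertain. SLPI, which encodes a secreted inhibitor of leukocyte proteases, was at 0.162 and 9.74 FPKM. Its log2 fold change was 3.95, next to the 3.86 of INAVA, which ranked 4 on this scale. With nothing added to the FPKM values, the ratio of TPC1-INAVA to TPC1-Vector was 60.2 for SLPI and 15.4 for INAVA. The nearness of their log2 fold changes thus rests on how the low value of SLPI in TPC1-Vector is treated.

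The cytohesins are the exchange factors to which INAVA binds, and their RNA was of similar level in both groups. CYTH1 (cytohesin-1, chromosome 17, 78674047 to 78782342) had 11.3 FPKM with the empty vector and 10.95 FPKM with the INAVA vector. CYTH2 (cytohesin-2, also called ARNO, chromosome 19, 48469208 to 48482314) was at 11.5 and 14.1 FPKM. CYTH3 (cytohesin-3, also called GRP1, chromosome 7, 6161781 to 6272611) was at 13.5 and 12.7 FPKM. In each group the highest cytohesin exceeded the lowest by less than 1.5-fold, with ratios of 1.20 in TPC1-Vector and 1.29 in TPC1-INAVA, so TPC1 cells contained RNA of all 3 at like levels. The log2 fold changes were -0.045 for CYTH1, 0.28 for CYTH2 and -0.093 for CYTH3. With 0.5 added, that of CYTH2 was the largest in size among the 6 partners that averaged 0.5 FPKM or more, and 18.0% of the 12305 genes had a larger change in either direction. CYTH2 supplied 31.6% of the summed cytohesin FPKM in TPC1-Vector and 37.3% in TPC1-INAVA, and moved from between the other 2 cytohesins to above them. Without a spread between libraries, the order of the 3 in either group cannot be told from equality.

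How alike the cytohesin RNAs are bears on whether their reads can be told apart. Their longest annotated coding sequences were identical at 76.4% of aligned bases for CYTH1 and CYTH2, 75.3% for CYTH1 and CYTH3 and 75.4% for CYTH2 and CYTH3. The longest run of bases shared without a mismatch was 20, 20 and 26. A stretch longer than 26 bases was thus never the same in any 2 of these coding sequences. Untranslated regions were not compared, and the mapping of reads was not examined. The window of 90 bases in which all 3 were most alike is given below as an illustration of what distinguishes them, with capitals at the 18 positions where the 3 are not all the same. It encodes part of the pleckstrin homology domain, with which cytohesins bind membrane phosphoinositides. In CYTH1 it lies on the reverse strand in exons 11 and 12 (chromosome 17, 78681019 to 78692482), in CYTH2 on the forward strand in exons 9 and 10 (chromosome 19, 48478080 to 48478298) and in CYTH3 on the reverse strand in exons 10 and 11 (chromosome 7, 6165593 to 6165799), introns included and in GRCh38.
CYTH1: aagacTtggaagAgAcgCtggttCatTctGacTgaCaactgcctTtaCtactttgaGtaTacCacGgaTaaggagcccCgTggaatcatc
CYTH2: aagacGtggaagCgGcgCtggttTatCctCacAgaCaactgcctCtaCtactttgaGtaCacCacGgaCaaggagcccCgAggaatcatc
CYTH3: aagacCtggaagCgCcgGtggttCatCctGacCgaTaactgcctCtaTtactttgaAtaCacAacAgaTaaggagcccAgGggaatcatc

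Set against its partners, INAVA moved from the lower to the upper part of the order. In TPC1-Vector the 8 genes ran, from high to low, ARF1, ARF6, CYTH3, CYTH2, CYTH1, INAVA, FRMD4A and FRMD4B, and INAVA was in place 6. In TPC1-INAVA it was in place 2, above ARF6 and below ARF1. The ratio of INAVA to the summed FPKM of the 3 cytohesins was 0.219 in TPC1-Vector, at 7.96 against 36.3 FPKM, and 3.25 in TPC1-INAVA, at 123 against 37.7 FPKM. The ratio of INAVA to ARF6 was 0.102 and 1.60 in the same order. INAVA made up 1.61% of the summed FPKM of the 8 genes in TPC1-Vector and 18.8% in TPC1-INAVA. These are ratios of RNA levels per transcript length and say nothing of protein amounts. The value of INAVA carries the reservation on the length of the vector transcript given above.

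ARF6 and ARF1, the GTPases that cytohesins activate, were the most abundant of the partners. ARF6 (chromosome 14, 49893018 to 49897054) had 77.9 FPKM with the empty vector and 76.8 FPKM with the INAVA vector. Its log2 fold change was -0.021, and 90.2% of the 12305 genes had a larger change in either direction. ARF1 (chromosome 1, 228082660 to 228099212) was at 369 and 412 FPKM, with a log2 fold change of 0.16. ARF1 exceeded ARF6 by a factor of 4.74 in TPC1-Vector and 5.36 in TPC1-INAVA. ARF1 was above 98.8% of the listed genes and ARF6 above 92.2% in TPC1-Vector. The coding sequences of ARF1 and ARF6 were identical at 70.3% of aligned bases, with a longest shared run of 20 bases. The most similar window of 90 bases, given for comparison with that of the cytohesins, encodes the P loop by which these proteins hold GTP, and capitals mark the 16 positions where ARF1 and ARF6 differ. It lies on the forward strand in exon 2 (chromosome 1, 228097163 to 228097252) and in exon 2 (chromosome 14, 49893773 to 49893862), in GRCh38.
ARF1: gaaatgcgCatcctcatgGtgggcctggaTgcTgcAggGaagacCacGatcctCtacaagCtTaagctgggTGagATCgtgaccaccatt
ARF6: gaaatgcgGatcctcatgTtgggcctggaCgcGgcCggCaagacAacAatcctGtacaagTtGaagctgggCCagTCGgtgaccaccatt

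The scaffolds were the weakest members. FRMD4A (chromosome 10, 13643706 to 14330867) had 3.75 FPKM with the empty vector and 3.13 FPKM with the INAVA vector. Its log2 fold change was -0.23, and 25.0% of the 12305 genes had a larger change in either direction. FRMD4B (chromosome 3, 69168783 to 69386304) was at 0.434 and 0.293 FPKM. Its mean lay under 0.5 FPKM, so it was the member left out of the filtered genes. The ratio of its FPKM values was 0.676, which is just within 1.5-fold, and its log2 fold change was -0.24 with 0.5 added, so its size rests on how values this low are treated. FRMD4A exceeded FRMD4B by a factor of 8.65 in TPC1-Vector and 10.7 in TPC1-INAVA. Their coding sequences were identical at 61.8% of aligned bases.

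Of the 6 partners that passed the filter, 2 were higher with the INAVA vector and 4 were lower. The median of their log2 fold changes was -0.033, against 0.0033 over the 12305 genes. A yardstick for single genes, though not a replicate spread, is the range of log2 fold changes among genes of like level. For the 5825 genes with a mean from 10 to 100 FPKM, the 5th and 95th percentiles were -0.30 and 0.33, and CYTH1, CYTH2, CYTH3 and ARF6 all lay between them. For the 782 genes at 100 FPKM or more these percentiles were -0.26 and 0.38, with ARF1 between them, and for the 4815 genes from 1 to 10 FPKM they were -0.42 and 0.44, with FRMD4A between them. Genes within 1 Mb of the partners showed no common shift, with medians of 0.081 for CYTH1 (14 genes), 0.025 for CYTH2 (36 genes), 0.041 for CYTH3 (24 genes), 0.0026 for ARF6 (19 genes), -0.023 for ARF1 (12 genes), -0.0087 for FRMD4A (15 genes) and 0.036 for FRMD4B (5 genes). Those higher in TPC1-INAVA were 9 of 14 for CYTH1, 19 of 36 for CYTH2 and 17 of 24 for CYTH3. They were 10 of 19 for ARF6, 5 of 12 for ARF1, 6 of 15 for FRMD4A and 3 of 5 for FRMD4B. Around CYTH2, 6 of the 36 genes were past 1.5-fold in either direction, beside 3.7% of the 12305 genes. Around ARF6 1 gene was, and around each other partner 0. The part of position in the value of CYTH2 was not tested. No listed gene overlapped any of the members.

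**Figure D3:**
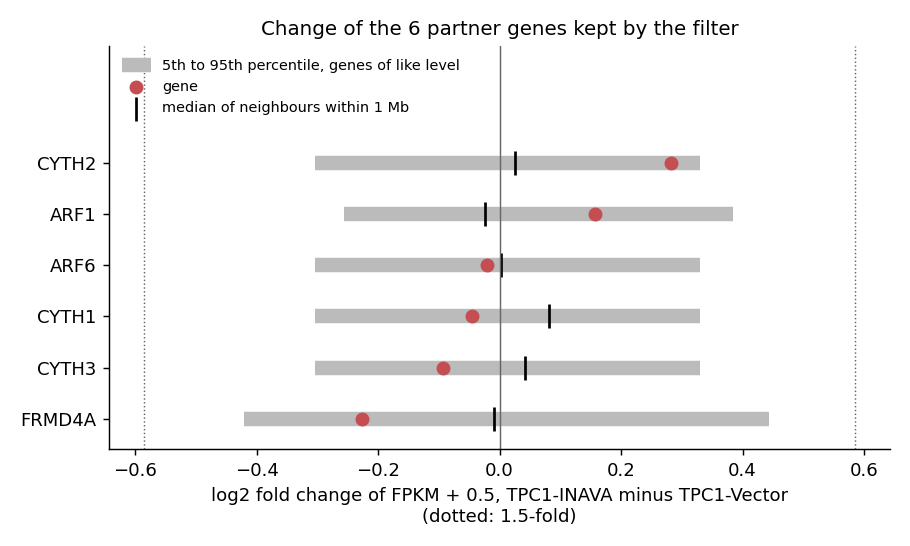
Log2 fold change (TPC1-INAVA minus TPC1-Vector, 0.5 added to each FPKM) of the 6 partners kept by the filter, as red points. Grey bars span the 5th to 95th percentile of genes of like mean level, black ticks are the median of the genes within 1 Mb, and dotted lines mark 1.5-fold. Every point lies within its bar, from FRMD4A at -0.23 to CYTH2 at 0.28.

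The wider ARF pathway was described through 7 lists of genes, which hold 84 genes besides the members. Of these, 70 are listed and 68 averaged 0.5 FPKM or more. Of the 68, 43 were higher and 25 lower with the INAVA vector, so that 63.2% were higher, beside 50.8% of the 12305 genes. None of the 68 reached 1.5-fold (0 genes, against 3.7% of the 12305), and the median log2 fold change was 0.050. With the groups scaled by the median of ratios or the upper quartile, 42 of the 68 were higher, beside 50.0% and 49.6% of the 12305 genes. In a bulk sample of a cell line, a change in RNA per cell and a change in the share of cells that make it cannot be told apart.

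Besides ARF6 and ARF1, the ARF GTPases include ARF4, at 179 and 195 FPKM, ARF3, at 75.3 and 77.0 FPKM, and ARF5, at 59.5 and 58.1 FPKM. All 5 ARFs were above every cytohesin in both groups, and their log2 fold changes ran from -0.036 to 0.16. Of the 15 exchange factors, 11 passed the filter, of which 5 were higher and 6 lower, with a median of -0.045. The Golgi exchange factors GBF1, at 28.1 and 23.0 FPKM, and ARFGEF1, at 24.2 and 23.3 FPKM, and the related ARFGEF2, at 18.0 and 21.4 FPKM, had the highest levels among them. IQSEC1, an exchange factor that acts on ARF6, was at 7.60 and 7.80 FPKM. CYTH4, the cytohesin of blood cells, was at 0.130 and 0.400 FPKM. Its ratio was 3.07, at a level under the filter.

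The GTPase-activating proteins, which return ARFs to their GDP-bound state, had 17 genes that passed, 13 higher and 4 lower (12 and 5 with either scaling), with a median of 0.097. ASAP1 was at 59.8 and 60.7 FPKM, ARFGAP1 at 28.1 and 40.1 FPKM and ASAP2 at 31.6 and 24.02 FPKM. Of 14 ARF effectors, 7 were higher and 7 lower, with a median of 0.0099. They include PIP5K1A, a kinase that makes a membrane phosphoinositide, at 75.3 and 74.7 FPKM. The cytokinesis motor KIF23 was at 52.7 and 51.4 FPKM, and the exocyst subunit EXOC5 at 20.9 and 19.0 FPKM.

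Among proteins that recruit or scaffold cytohesins, 11 genes passed, 6 higher and 5 lower, with a median of 0.014. The polarity protein PARD3 was at 48.0 and 48.5 FPKM. CCDC120, which like INAVA binds cytohesins, was at 1.25 and 1.24 FPKM. Of the 7 other described partners of INAVA that passed, 4 were higher and 3 lower, with a median of 0.051. They include YWHAQ, a 14-3-3 protein, at 278 and 294 FPKM, and the ubiquitin ligase subunits SKP1, at 154 and 153 FPKM, and RBX1, at 83.5 and 87.9 FPKM. BTRC, an F-box protein of the same kind of ligase, was at 10.7 and 8.61 FPKM. The last list joins surface proteins sorted by ARF6 with proteins of adherens junctions. Of its 9 genes that passed, 7 were higher and 2 lower, with a median of 0.12. The junction proteins CTNNB1, CTNNA1 and CTNND1, which are catenins, were at 146 and 159, 129 and 138, and 46.3 and 44.3 FPKM. ITGB1 was at 504 and 573 FPKM, BSG at 346 and 394 FPKM, SLC3A2 at 329 and 309 FPKM and the hyaluronan receptor CD44 at 165 and 213 FPKM. CDH1, which encodes E-cadherin, was not analysed here.

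**Figure D4:**
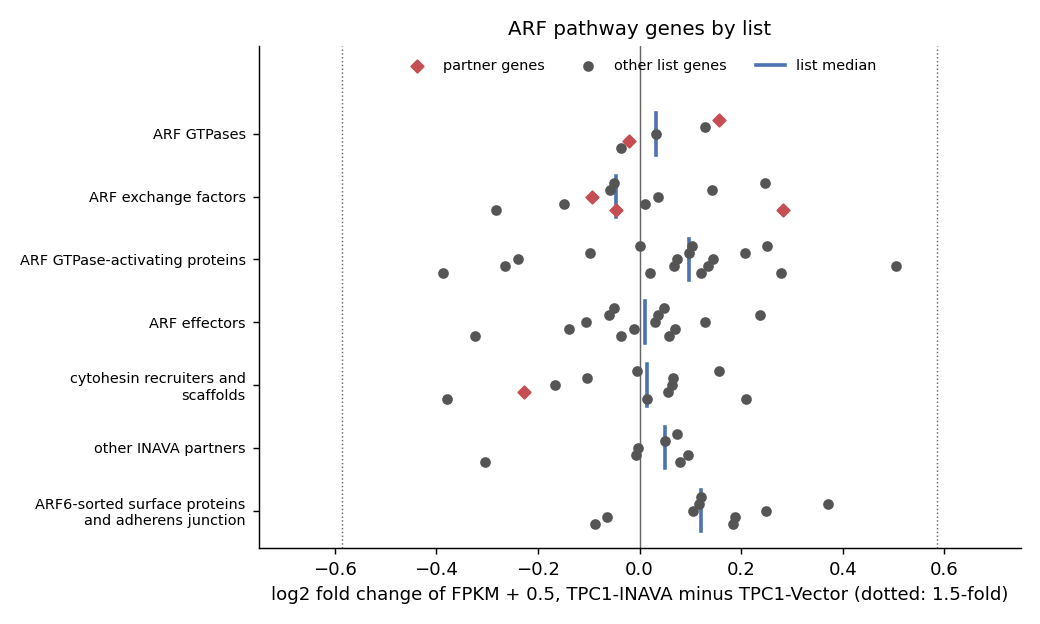
Log2 fold change (TPC1-INAVA minus TPC1-Vector, 0.5 added to each FPKM) of the genes of the 7 lists that averaged 0.5 FPKM or more, with red diamonds for the partners, grey points for the other genes, a blue line for the list median and dotted lines at 1.5-fold. All points lie between the dotted lines, ARFGAP1 being farthest from 0 at 0.51.

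Pathway genes were also looked at by position, a choice made after their values were seen. Given here are the 10 with the largest differences, and those whose neighbours had a median at least 0.2 from 0. ARFGAP1, on chromosome 20, had a log2 fold change of 0.51, and 33 of the 39 genes within 1 Mb of it were also higher in TPC1-INAVA, with a median of 0.32. ARFGEF2, on the same chromosome, had 0.25, with 11 of 12 neighbours higher and a median of 0.33. PARD6B, also on chromosome 20 and with a neighbour median of 0.34, had 0.057. On chromosome 10, BTRC had -0.30 and GBF1 -0.28, with 29 of 31 and 28 of 30 neighbours lower and medians of -0.30 and -0.31. BTRC and GBF1 lie within 1 Mb of each other, so each is a neighbour of the other. Their 2 neighbourhoods share genes and are not separate observations. The windows of ARFGEF2 and PARD6B also overlap in part. ARFGAP1, ARFGEF2, PARD6B, BTRC and GBF1 are the 5 of the 68 genes whose neighbours had a median at least 0.2 from 0. The part of their neighbourhoods in their values was not tested. The neighbourhoods of ASAP2 (log2 fold change -0.39), the arrestin ARRB1 (-0.38) and CD44 (0.37) had medians of -0.037, -0.015 and 0.036. Those of PLD1 (-0.32) and AGAP1 (0.28) had medians of -0.18 and 0.060. ACAP3 (-0.27) went against its neighbours, of which 32 of 41 were higher, with a median of 0.11. ARAP2 (0.25) had 0 neighbours.

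**Figure D5:**
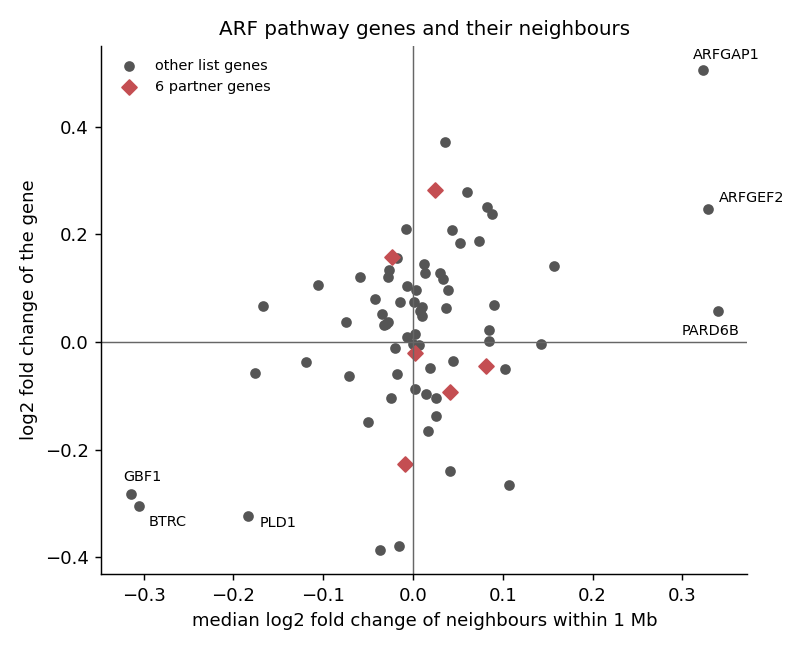
Log2 fold change of each pathway gene (grey points) and of the 6 partners (red diamonds) against the median log2 fold change of the genes within 1 Mb of it, leaving out ARAP2, which has 0 such neighbours. ARFGAP1, ARFGEF2 and PARD6B lie to the right with neighbour medians of 0.32 to 0.34, BTRC and GBF1 to the left at -0.30 and -0.31, and the partners between -0.023 and 0.081.

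The label of the cells was checked against marker genes. Of 8 thyroid genes, 3 are listed, namely the transcription factors PAX8 at 60.1 and 55.7 FPKM, FOXE1 at 5.26 and 5.89 FPKM and HHEX at 8.33 and 10.0 FPKM. NKX2-1, TG, TSHR and SLC5A5 are not among the genes analysed here. Of 5 epithelial genes, KRT18 was at 140 and 212 FPKM and KRT8 at 23.4 and 10.5 FPKM, whereas KRT19, EPCAM and CDH1 are not among the genes analysed, nor are PTPRC of blood cells and PECAM1 of endothelium.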

How the data were processed

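RNA libraries of TPC1-Vector and TPC1-INAVA cells, 2 per group, were sequenced by the authors, who deposited 1 FPKM value per gene and group for 13165 genes. The submitters' processing notes name CASAVA, Cufflinks 2.1.1, Cuffdiff and the build hg38, without their roles. The aligner, the annotation, the strand setting and the way libraries were combined are not given in the sources used here. The labels and the paper name different library kits. Columns were matched to groups by name, and 0 columns of single samples were held. The table also holds the authors' own comparison (a log2 ratio, a direction, a p-value and a q-value), which was not used.

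Genes averaging 0.5 FPKM or more over the groups were kept (12305), and fold changes were differences of log2(FPKM + 0.5). With 1 value per group no test was made, and genes past 1.5-fold were counted. The calculation was tested on simulated data. Neighbours were listed genes within 1 Mb. Deposited starts count from 0 and were raised by 1, which matched a GENCODE release 29 transcript start for 5241 of 12386 genes, against 413 as deposited. Coding sequences, from GENCODE, were those of the basic transcript with the longest frame. They were aligned with biopython 1.88. The genes named are the 8 members, listed genes within 1 Mb of INAVA, the 3 genes with the largest log2 fold change towards TPC1-INAVA, and the most abundant genes of each pathway list; others were chosen after their values were seen. Some genes of the lists are not reported here by name. Members and lists were chosen with earlier results of these data known. Python 3.11.15, numpy 2.4.6, pandas 2.3.3 and matplotlib 3.10.9 were used. Pseudocounts of 0.1 and 1, other filters, median-of-ratios and upper-quartile scaling and a limit of 2-fold were tried.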

Additional observations from a re-analysis of the deposited data

How the results depend on the processing

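No paired analysis was possible because values of single libraries were not analysed here, and for the same reason no library could be left out. The count of partners past 1.5-fold was 0 under each alternative, 2-fold included. The log2 fold change of INAVA ranged from 3.78 to 3.94, and each partner kept its direction in all alternatives run. The value of FRMD4B, -0.24, became -0.44 when 0.1 was added and -0.57 when nothing was added, the latter tried only after seeing the data; the pseudocount itself shrinks the change of weak genes. The count of ARF pathway genes past 1.5-fold was 0, and 1 (CYTH4) without pseudocount and without filter, also chosen afterwards. INAVA relative to the summed cytohesins, 0.219 in TPC1-Vector and 3.25 in TPC1-INAVA, was 0.693 and 8.70 relative to CYTH2 alone and 0.703 and 11.2 relative to CYTH1 alone, since fewer genes are summed. Scaling by the median of ratios or the upper quartile changed the relation of the groups by factors of 1.002 and 1.004. The unknown depth and the missing spread between libraries limit every value.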
